A study of Mus musculus with 6 samples.

Results

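A group of 37 genes whose protein products circulate in plasma, and which are known chiefly as liver genes, was followed in mouse pancreas at E13.5, the middle of gestation. The members were listed by name, with earlier results of these arrays in view, and each was represented by the array row that carried its symbol alone, or by the row with the highest mean where several did. Of the 37, 36 were among the 19938 genes measured in this way, and C3, the central complement component, was not analysed here. Because the list was drawn up with this comparison known, the changes of its members are given as a description, with no test of their own.

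RNA was compared between beta-catenin activated pancreata (Pdx1-Cre; Ctnnb1tm1Mmt/+) and wild type control pancreata, with 3 pools per genotype and 3 pancreata in each pool, and each pool was hybridised to 1 Affymetrix Mouse Gene 1.0 ST array, on which short DNA probes read the RNA of each gene. In the activated embryos 1 allele of Ctnnb1, the gene of beta-catenin, had a floxed exon 3, whose removal stabilises the protein, and Cre was driven by the Pdx1 promoter, so that recombination was directed to cells that express Pdx1, mainly pancreatic and duodenal epithelium. The study asked which genes changed when Wnt/beta-catenin signaling was activated in the developing pancreas. Whether the controls carried Cre or the floxed allele was not given in the sources used here. The arrays had medians between 6.37 and 6.47 (log2) and correlated at 0.993 to 0.997 within a genotype and at 0.973 to 0.979 between genotypes. Pdx1, the gene whose promoter drove Cre, was at 5.86, 5.87 and 5.59 in activated pools, against 9.87, 9.95 and 9.97 in wild type pools. Ctnnb1 was at 12.64, 12.37 and 12.65 in activated pools and at 12.36, 12.14 and 12.33 in wild type pools (log2 change 0.28 ± 0.11 SE, limma adjusted p = 0.148), and its row is read by probes spread along the transcript, so it does not check the removal of exon 3.

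Hepatocytes secrete most plasma proteins, among them albumin, the apolipoproteins that carry lipid, the zymogens of clotting and the serpins, which trap proteases in an irreversible complex. Liver and ventral pancreas arise from neighbouring foregut endoderm, and both organs use regulators of the HNF1, HNF4, FOXA and ONECUT families. Several of these genes are also transcribed outside the liver, in yolk sac endoderm, gut epithelium, choroid plexus, macrophages or islet cells.

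The stretches just upstream of 6 members are printed here, because 3 of them (Serpina1c, Vtn and Ambp) belonged to genes with very large decreases and 3 (Alb, Afp and Fga) to genes that the test did not call, so that both kinds can be read side by side. Each run holds the 250 bases before the annotated start, 5′ to 3′ on the gene's own strand, from RefSeq (build GRCm38.p6), and capitals mark the letters GTTAAT, or ATTAAC where they stand on the other strand, which begin the binding consensus of the liver and pancreas regulator HNF1.
Serpina1c (chr12:103904951-103905200, minus strand): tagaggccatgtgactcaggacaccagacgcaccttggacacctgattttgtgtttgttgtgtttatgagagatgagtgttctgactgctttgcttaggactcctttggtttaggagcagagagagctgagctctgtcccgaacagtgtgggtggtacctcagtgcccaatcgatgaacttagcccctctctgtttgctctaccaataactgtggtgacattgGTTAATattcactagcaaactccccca
Vtn (chr11:78498870-78499119, plus strand): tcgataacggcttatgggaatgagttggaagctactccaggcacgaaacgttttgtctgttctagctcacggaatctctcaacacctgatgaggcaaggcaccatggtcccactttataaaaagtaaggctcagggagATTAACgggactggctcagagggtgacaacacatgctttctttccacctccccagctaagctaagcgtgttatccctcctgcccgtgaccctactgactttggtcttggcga
Ambp (chr4:63154173-63154422, minus strand): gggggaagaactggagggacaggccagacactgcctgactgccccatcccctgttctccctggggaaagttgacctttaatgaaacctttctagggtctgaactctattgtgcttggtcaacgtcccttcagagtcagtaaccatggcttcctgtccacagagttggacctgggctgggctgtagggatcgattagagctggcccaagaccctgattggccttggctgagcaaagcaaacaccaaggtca
Alb (chr5:90460620-90460869, plus strand): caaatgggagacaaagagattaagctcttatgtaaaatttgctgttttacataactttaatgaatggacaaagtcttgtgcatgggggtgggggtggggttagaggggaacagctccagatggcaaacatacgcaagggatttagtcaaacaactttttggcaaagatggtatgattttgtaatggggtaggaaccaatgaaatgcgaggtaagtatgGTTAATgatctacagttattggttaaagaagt
Afp (chr5:90490464-90490713, plus strand): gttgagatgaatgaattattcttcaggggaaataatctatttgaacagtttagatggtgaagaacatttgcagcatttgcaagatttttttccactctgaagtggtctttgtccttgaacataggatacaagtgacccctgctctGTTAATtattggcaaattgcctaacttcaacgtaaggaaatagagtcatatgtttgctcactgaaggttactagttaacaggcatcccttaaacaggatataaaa
Fga (chr3:83025903-83026152, plus strand): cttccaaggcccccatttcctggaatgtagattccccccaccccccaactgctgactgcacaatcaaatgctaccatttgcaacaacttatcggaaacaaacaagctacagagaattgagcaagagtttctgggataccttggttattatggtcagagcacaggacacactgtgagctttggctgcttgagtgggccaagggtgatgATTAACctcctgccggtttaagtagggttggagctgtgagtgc
Alb, Afp and Fga held the longer HNF1 letters GTTAATNAT, at positions -32 to -24 in Alb, -105 to -97 in Afp and -46 to -38 in Fga, counted back from the base before the start. Serpina1c and Vtn held the 6 letters once each, and Ambp held none in this window. Fga lay near background in both genotypes (mean 5.17 in wild type and 5.23 in activated pools), with little room for a decrease. No link between letters and change is read from these 6 promoters. A promoter was at hand for 30 of the 37 members. On either strand, GTTAATNAT lay in 4 of the 30 (Afp, Alb, Cp and Fga), or 13.3%, against 0.866% of the 27025 genes with a promoter. The 6 letters GTTAAT, a search added after the data were seen and contained in the longer one, lay in 9 of the 30, or 30.0%, against 7.49% of all promoters. Of these 9, Apoe, Fgb, Serpina1c and Vtn were called lower, and Afp, Alb, Cp, Fga and Itih1 were not called. The C/EBP letters TTGCNNAA lay in 11 members, or 36.7%, against 10.8% of all promoters, and the FOXA letters TGTTTAC in 3 (Apoa2, Apoh and Fetub), against 3.54% of all promoters. The TCF/LEF letters CTTTGAT, which are bound by the partners of beta-catenin, lay in 1 member, Serpind1, against 3.72% of all promoters, and the HNF4 letters CAAAGTCCA lay in 0 members, against 0.451%. Base composition was not matched between members and other genes, and such a match is a description of letters, not of binding.

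As a group, the plasma protein genes were lower in activated pancreata, and the decrease was carried by part of them. The median log2 change of the 36 genes was -0.45, against 0.03 over all 19938 genes. In the limma fit across all genes, 16 of the 36 were lower at an adjusted p under 0.05, where 7.53% of all genes were lower, and 0 were higher, where 6.59% of all genes were higher; at an unadjusted p under 0.05 the counts were 21 lower and 0 higher. The 3 activated pools lay entirely below the 3 wild type pools in 20 members and entirely above them in 0, against 13.9% of all genes below, 16.9% above and 30.9% either way. Changes of -1 or less were seen in 10 members and in 2.1% of all genes, and 4 of the 11 genes in all with a change of -4 or less were members. The 95th percentile of 1027 olfactory receptor genes, 5.64 in wild type and 5.72 in activated pools, served as a guide to background. Of the 36 members, 18 were above it in activated pools. In 4 members (Serpina1c, F5, F10 and Plg) the wild type mean lay above it and the activated mean at or below it. With the difference of these 4 taken only down to 5.72, the median was -0.36, and 9 members had a change of -1 or less. Since the list was chosen on this contrast, nothing is read from these shares. In RNA of a whole organ, fewer cells of a type and less RNA per cell cannot be told apart. Markers of pancreatic epithelium moved with these genes: 22 of 24 were lower. Their mean level was 7.77 to 7.88 in activated pools, against 9.87 to 10.3 in wild type pools. Changes in that list were uneven, from -5.38 (Ctrb1) to -0.14 (Bex2). General epithelial genes in it included Epcam (-0.39), Cldn7 (-0.45), Cdh1 (-1.68) and Krt8 (-1.84). Endocrine genes moved as well, with 21 of 23 lower and 1 higher, and a mean level of 6.62 to 6.66 in activated pools, against 8.55 to 8.95 in wild type pools. Several genes of both lists, among them Pdx1, Cpa1 and Neurog3, were picked by the study itself from these arrays, so their direction is not independent evidence. The part of the epithelial and endocrine shifts in the plasma protein values was not tested.

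**Figure D1:**
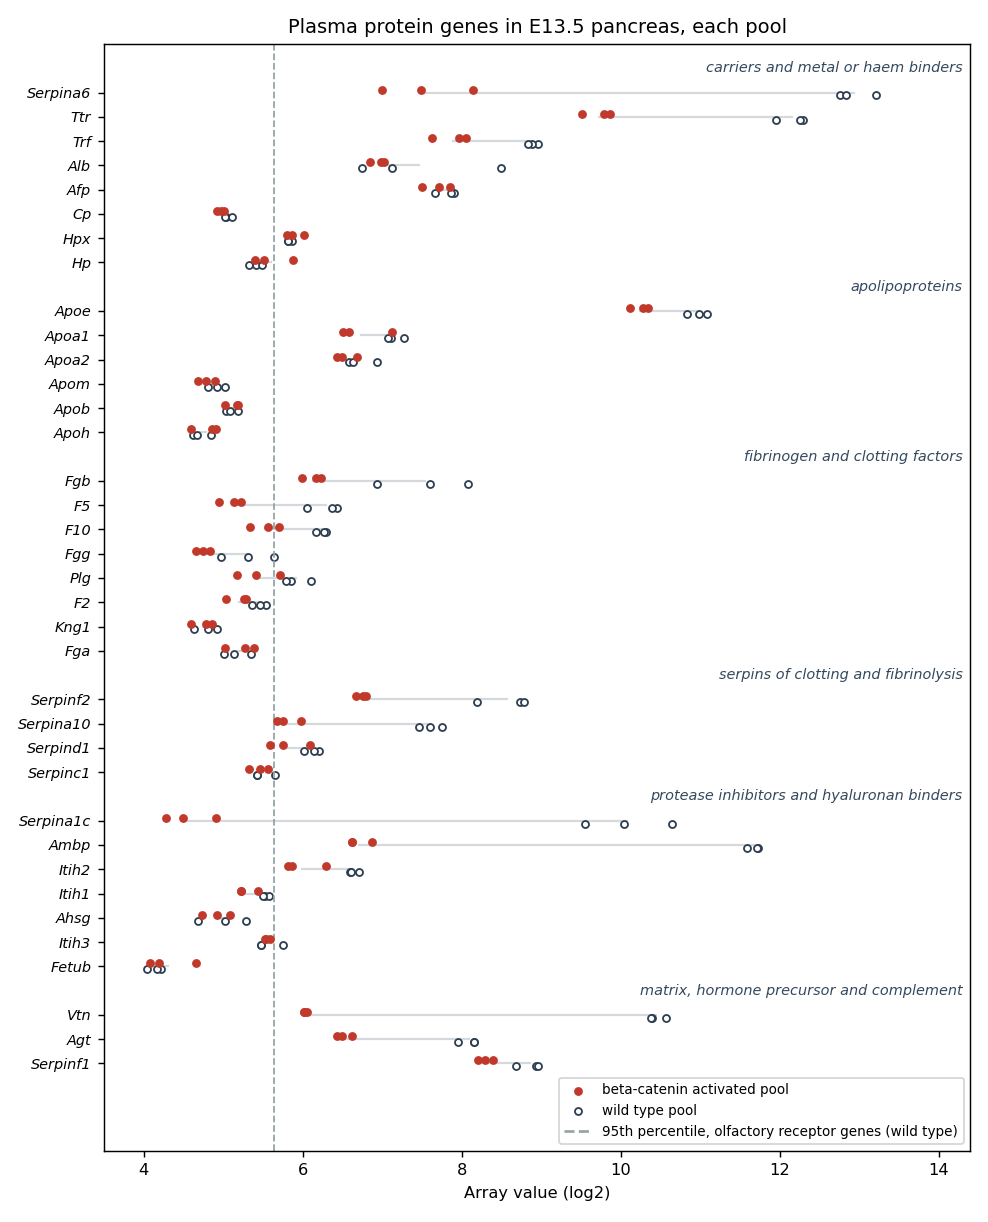
Array values (log2, horizontal axis) of the 36 plasma protein genes in each pool, grouped by role. Filled points are the 3 beta-catenin activated pools, open points the 3 wild type pools, grey lines join the genotype means, and the dashed line is the 95th percentile of the wild type means of 1027 olfactory receptor genes (5.64). Serpina1c, Serpina6, Ambp and Vtn have the widest separation, while genes left of the dashed line in wild type lie close together in both genotypes.

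Among the carrier proteins, Serpina6 and Ttr, which both bind hormones, were far lower in activated pools. Serpina6 (row 10402368), corticosteroid-binding globulin, was at 8.14, 7.49 and 7.0 in activated pools, against 12.76, 12.83 and 13.21 in wild type pools. Its log2 change of -5.39 ± 0.25 (SE, n = 3 pools each), or 42.0-fold, ranked 3 from the lowest of all 19938 genes. The genotypes were far apart, with the activated mean at percentile 56.5 of all genes and the wild type mean at percentile 99.9.

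Ttr (row 10454192), transthyretin, carries thyroid hormone and the retinol-binding protein complex and is known as a product of islet cells as well as of liver. It was at 9.52, 9.87 and 9.79 in activated pools, against 12.29, 12.25 and 11.95 in wild type pools (log2 change -2.44 ± 0.13 SE, 5.41-fold). The pools did not overlap, yet Ttr was 1 of 3 members with an activated mean above 8. Trf, transferrin, the iron carrier of plasma, had 7.97, 7.63 and 8.06 in activated pools, against 8.96, 8.88 and 8.83 in wild type pools, a change of -1.0 ± 0.12 (2.0-fold).

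The defining products of fetal liver behaved otherwise. Alb, albumin, was at 6.99, 6.85 and 7.03 in activated pools, against 6.75, 7.13 and 8.50 in wild type pools, and Afp, alpha-fetoprotein, was at 7.5, 7.86 and 7.72 in activated pools, against 7.91, 7.66 and 7.87 in wild type pools. The genotypes overlapped for both genes, with changes of -0.50 ± 0.35 for Alb and -0.12 ± 0.12 for Afp. The Alb difference rested on wild type pool 3, and without it the change was 0.02. In the same pool the red cell genes Alas2, the heme synthesis enzyme of erythroid cells (9.05, against 8.0 and 7.97 in the other wild type pools), and Hbb-y, an embryonic globin (12.73, against 12.31 and 12.22), also had their highest wild type values. Of the 15 red cell genes measured, all but Epb42, Tmod1 and Gata1 had their highest wild type value there, and Afp did not. The part of red cell genes in the Alb value was not tested. The remaining carriers lay near or below the level of the olfactory receptor genes. Hpx, hemopexin, which binds free heme, was at 5.80, 6.02 and 5.87 in activated pools and at 5.87, 5.82 and 5.82 in wild type pools (0.06 ± 0.09), while Hp, haptoglobin, differed by 0.19 ± 0.13 and Cp, ceruloplasmin, by -0.09 ± 0.09.

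Of 6 apolipoproteins, the protein parts of lipoprotein particles, 1, Apoe, was called lower, where 7.53% of all genes were lower. Apoe, which directs particles to their receptors and is made by macrophages and many other cells, was at 10.28, 10.12 and 10.35 in activated pools, against 10.99, 10.83 and 11.09 in wild type pools (-0.72 ± 0.11, 1.65-fold). The pools did not overlap, and Apoe kept the highest activated mean of all members (10.25). Apob, the backbone of very low and low density lipoproteins, was at 5.17, 5.19 and 5.03 in activated pools and at 5.04, 5.09 and 5.19 in wild type pools (0.02 ± 0.09), a level within the range of the olfactory receptor genes. Apoa1 and Apoa2, the proteins of high density lipoprotein, differed by -0.42 ± 0.16 and -0.17 ± 0.12 with overlapping pools, and Apom and Apoh by -0.13 ± 0.10 and 0.07 ± 0.11.

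Of the 8 fibrinogen chains and clotting factors, 4 were called lower, where 7.53% of all genes were lower. The list was chosen on this contrast, so nothing is read from this share. The mean level of the 8 was 5.2 to 5.3 in activated pools, below the olfactory receptor level of 5.72. In wild type pools it was 5.72 to 6.0. Fgb, the fibrinogen beta chain, was at 5.99, 6.23 and 6.17 in activated pools, against 8.08, 7.6 and 6.93 in wild type pools (-1.41 ± 0.24, 2.65-fold). The wild type pools spread over 1.15 log2 units, with pool 3 nearest to the activated pools, but none overlapped. Fgg, the gamma chain, differed by -0.56 ± 0.15, and its call was lost in 10 of the 15 other settings that included it. Fga, the alpha chain, differed by 0.06 ± 0.13 and a further row of the same gene by -0.03 ± 0.13, so the 3 chains, which are secreted as 1 complex, did not have a common change on this array. Fgg and Fga lay at or below the level of the olfactory receptor genes in both genotypes.

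F5, coagulation factor V, the cofactor that speeds thrombin formation, was at 5.23, 5.14 and 4.95 in activated pools, against 6.43, 6.37 and 6.06 in wild type pools (-1.18 ± 0.12), or at least 1.48-fold lower when taken down to the level of 5.72. F10, the protease that works with it, differed by -0.71 ± 0.11, also without overlap, or at least 1.44-fold when taken down to 5.72. Plg (plasminogen, the zymogen of the fibrin-cleaving protease) and F2 (prothrombin) had activated pools below all wild type pools, at -0.48 ± 0.14 and -0.26 ± 0.10, and neither was called. Kng1, kininogen, from which bradykinin is released, was at 4.86, 4.60 and 4.79 in activated pools and at 4.64, 4.92 and 4.81 in wild type pools, with overlapping ranges (-0.04 ± 0.11).

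Of the 4 serpins that act on clotting and fibrinolysis, 2 were called lower, where 7.53% of all genes were lower. Serpinf2, alpha-2 antiplasmin, the inhibitor of plasmin, was at 6.76, 6.80 and 6.67 in activated pools, against 8.73, 8.78 and 8.20 in wild type pools (-1.82 ± 0.15, 3.53-fold). Serpina10, the protein Z-dependent inhibitor of factor X, was at 5.98, 5.75 and 5.68 in activated pools, against 7.75, 7.46 and 7.6 in wild type pools (-1.80 ± 0.11, 3.48-fold). Both genes had a gap of more than 1 log2 unit between the genotypes. Serpinc1, antithrombin, was at 5.46, 5.57 and 5.32 in activated pools and at 5.43, 5.65 and 5.43 in wild type pools, which overlapped (-0.05 ± 0.11). Serpind1, heparin cofactor II, differed by -0.31 ± 0.13.

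The protease inhibitors held 2 of the 4 members with changes of -4 or less. Serpina1c (row 10402406), an alpha-1 antitrypsin, the inhibitor of neutrophil elastase, was at 4.28, 4.91 and 4.49 in activated pools, against 10.65, 10.04 and 9.55 in wild type pools. The measured difference was -5.52 ± 0.25, but the activated mean of 4.56 lay below the olfactory receptor level of 5.72, so the size of the decrease is given as at least 20.6-fold. Mouse alpha-1 antitrypsin genes are near-identical copies, so signal can be shared between them. Rows annotated to 5 of these genes together were not used for the member: 1 was at 5.41, 5.59 and 5.38 in activated pools, against 9.46, 9.0 and 8.76 in wild type pools (-3.61 ± 0.18, 12.2-fold). The other was at 7.83, 8.06 and 7.89 in activated pools, against 12.19, 11.75 and 11.27 in wild type pools (-3.81 ± 0.22, 14-fold). All these rows thus had non-overlapping genotypes, with the highest value in wild type pool 1 and the lowest wild type value in pool 3, as for Fgb.

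Ambp (row 10513630), whose precursor is cut into alpha-1-microglobulin and bikunin, the light chain of the inter-alpha-trypsin inhibitors, was at 6.87, 6.62 and 6.62 in activated pools, against 11.73, 11.72 and 11.59 in wild type pools (-4.97 ± 0.10, 31.4-fold). Each genotype was tight, and Ambp ranked 6 from the lowest of all genes. Its heavy chain partners, which are joined to bikunin and carried to hyaluronan, did not share the size of this change: Itih2 differed by -0.65 ± 0.13, Itih1 by -0.24 ± 0.10 and Itih3 by -0.02 ± 0.10. Itih3 was at 5.54, 5.59 and 5.53 in activated pools and at 5.48, 5.76 and 5.48 in wild type pools. The means of Itih1 and Itih3 lay below the olfactory receptor level in both genotypes, which leaves little room for a decrease. Fetuins Ahsg (-0.09 ± 0.15) and Fetub (0.17 ± 0.15) had overlapping pools at the level of the olfactory receptor genes.

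Vtn (row 10379190), vitronectin, an adhesive protein of plasma and matrix, was at 6.05, 6.02 and 6.02 in activated pools, against 10.40, 10.57 and 10.38 in wild type pools (-4.42 ± 0.09, 21.4-fold). Both genotypes were tight, and Vtn ranked 9 from the lowest of all genes. Agt, angiotensinogen, the precursor of angiotensin, was at 6.50, 6.62 and 6.43 in activated pools, against 8.16, 7.96 and 8.16 in wild type pools (-1.58 ± 0.10, 2.98-fold). Serpinf1, pigment epithelium-derived factor, a serpin without inhibitory activity that mesenchymal cells also secrete, was at 8.30, 8.21 and 8.40 in activated pools, against 8.93, 8.96 and 8.69 in wild type pools (-0.56 ± 0.11, 1.47-fold). All 3 genes had activated pools below every wild type pool.

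The wild type level and the change went together across the members. Wild type means ran from 4.14 to 12.93, and activated means from 4.31 to 10.25. All 10 members with a wild type mean above 8 were called lower, against 7.53% of all genes at any level. The share among all genes above 8 was not computed, and the list was chosen on this contrast, so nothing is read from this count. The 14 members at or below 5.64 in wild type had changes between -0.56 and 0.19. That level is the 95th percentile of 1027 olfactory receptor genes, which serve here as a guide to signal near background. Above that level were 22 members in wild type pools, and 18 were above the corresponding level in activated pools (5.72). Serpina1c, F5, F10 and Plg were above it in wild type pools alone. Across the 36 genes, wild type mean and change had a Pearson r of -0.81 and a Spearman rho of -0.84. With the mean of all 6 arrays on the level axis these were -0.63 and -0.76, and over all genes r was -0.11 with the wild type mean. The points share the same 6 arrays and the wild type mean enters both axes, values of different rows are not on 1 scale of abundance, and a gene near background has little room for a decrease (Fgg, at a wild type mean of 5.31, was the called member among the 14), so these coefficients are descriptions across genes, which are not independent replicates.

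**Figure D2:**
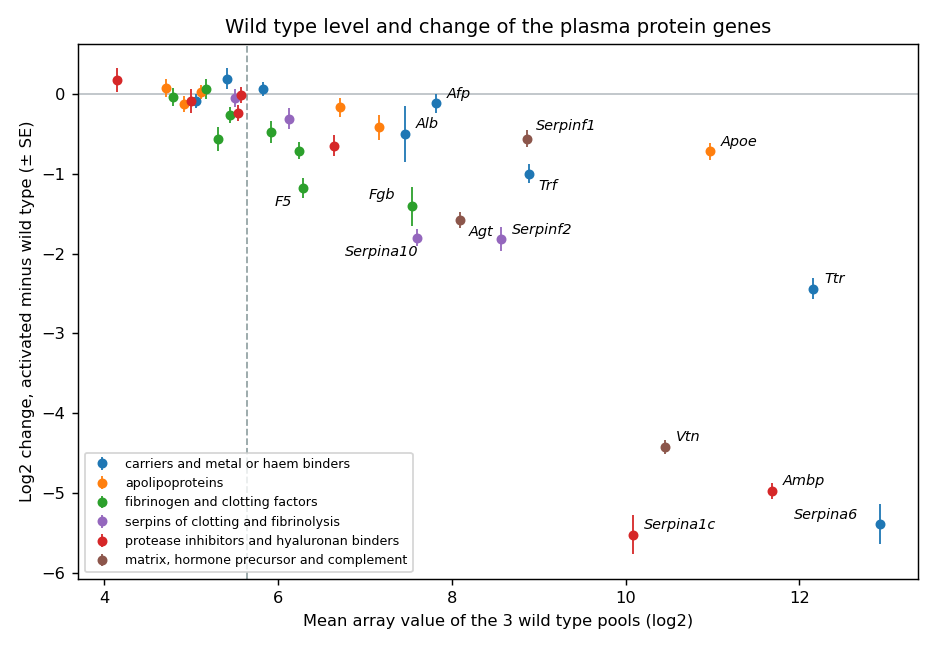
Mean wild type value (log2, horizontal axis) against the log2 change, activated minus wild type (vertical axis, bars ± SE from the limma fit), for 36 plasma protein genes coloured by role. The dashed line is the olfactory receptor level of 5.64. Serpina6, Ambp, Serpina1c and Vtn combine high wild type values with changes of -4.42 or lower, Apoe and Serpinf1 are high with changes of -0.72 and -0.56, and Afp lies near 0.

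Other plasma proteins made by the liver had a median change near that of all genes, with a few large decreases. Of 55 further genes measured from a list of 67, 8 were lower and 1 was higher, with a median change of -0.03, and 24 of them were above the olfactory receptor level in wild type pools. Rbp4, the plasma carrier of retinol and the partner of transthyretin, was at 8.08, 7.99 and 8.11 in activated pools, against 11.29, 11.18 and 10.96 in wild type pools (log2 change -3.08 ± 0.11 SE, limma adjusted p = 1.53e-07). The pools of Rbp4 did not overlap, as with Ttr. Serpina1d, a further alpha-1 antitrypsin copy, changed by -1.90 ± 0.23 (limma adjusted p = 0.00034), Habp2, a hyaluronan-binding protease, by -1.47 ± 0.11 (1.57e-05), Apoc1 by -1.26 ± 0.11 (5.32e-05) and Apcs, serum amyloid P, by -0.94 ± 0.15 (0.00236). Serpina1d was below 5.72 in activated pools, which makes it at least 2.1-fold lower, and Apcs lay below the olfactory receptor level in both genotypes. Masp1, a protease of the lectin pathway of complement, was the gene that rose, at 7.07, 7.02 and 7.11 in activated pools, against 6.55, 6.2 and 6.4 in wild type pools (0.68 ± 0.11, limma adjusted p = 0.00176).

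The enzymes and transporters inside hepatocytes were mostly near background in both genotypes. Of 35 measured from a list of 40, 8 were above the olfactory receptor level in wild type pools and 3 in activated pools, and their mean level was 4.87 to 5.08 in activated pools, against 5.07 to 5.12 in wild type pools. Cps1 and Otc of the urea cycle, Tat, Tdo2, G6pc, Cyp7a1 and Fabp1 were among those at or below that level in wild type pools. The 8 above it were Mat1a, Fah, Fbp1, Arg1, Ttpa, Haao, Hpd and Aass. Fah had a mean of 7.9 in wild type and 8.05 in activated pools and was not called. Levels in fetal liver of this age were not measured here, so nothing on liver RNA in the pools is read from these genes. Limma called 3 lower and 0 higher (4 lower and 1 higher at an unadjusted p under 0.05). Mat1a, the enzyme that makes S-adenosylmethionine in liver, was at 5.21, 5.19 and 5.18 in activated pools, against 8.13, 8.70 and 8.0 in wild type pools (-3.08 ± 0.16, limma adjusted p = 1.44e-06), and at least 5.89-fold lower when taken down to 5.72. Arg1, arginase, changed by -0.94 ± 0.11 (limma adjusted p = 0.000331) and Fbp1, of gluconeogenesis, by -0.86 ± 0.18 (limma adjusted p = 0.010). Yolk sac and visceral endoderm genes beside the plasma proteins numbered 11, of which 2 were lower and 0 higher (4 and 1 at an unadjusted p under 0.05), and the larger decrease was that of Slc2a2, a glucose transporter that hepatocytes and beta cells also use (-3.33 ± 0.23, limma adjusted p = 7.56e-06).

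**Figure D3:**
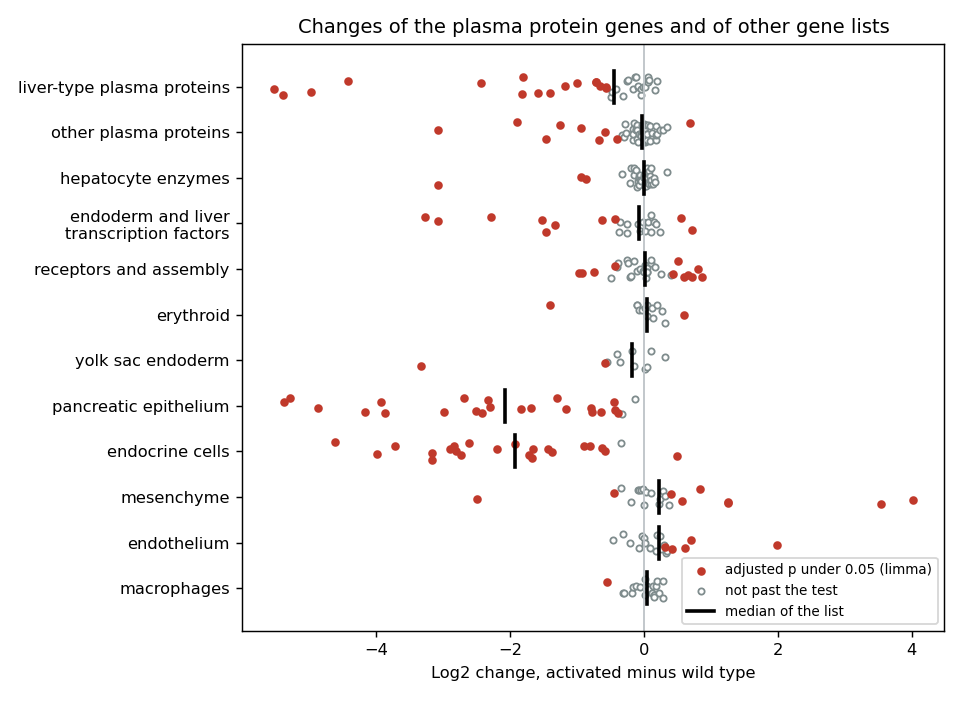
Log2 change, activated minus wild type (horizontal axis), of every measured gene in the plasma protein group and in 11 other lists. Filled points passed the limma test at an adjusted p under 0.05, open points did not, and black bars are list medians. The plasma protein median lies at -0.45, hepatocyte enzymes cluster at a median of 0.00, and the pancreatic epithelium and endocrine lists lie at -2.07 and -1.93.

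Regulators known to act on plasma protein genes in liver were lower in part. Of 26 transcription factors of hepatocytes and foregut endoderm measured from a list of 28, 8 were lower and 2 higher, with a median change of -0.07. Nr5a2, Onecut1, Hnf4a, Gata4 and Hhex are among the genes the study itself picked from these arrays, so their direction is not independent evidence. Hnf4a, a nuclear receptor that drives many hepatocyte genes, was at 7.27, 7.34 and 6.86 in activated pools, against 9.44, 9.59 and 9.31 in wild type pools (-2.29 ± 0.14, limma adjusted p = 3.18e-06). Nr5a2 (-3.27 ± 0.11, limma adjusted p = 1.42e-07) and Onecut1 (-3.08 ± 0.14, limma adjusted p = 5.70e-07) were lower too. Hhex (-1.33 ± 0.15), Gata4 (-1.47 ± 0.17) and Nr0b2, a repressor of bile acid synthesis (-1.52 ± 0.18), were lower as well, with limma adjusted p of 0.000182, 0.000245 and 0.000263. Foxa1 (0.72 ± 0.14, limma adjusted p = 0.00542) and Hnf4g (0.55 ± 0.11, limma adjusted p = 0.00635) were higher. Foxa2 (0.11 ± 0.10), Foxa3 (0.15 ± 0.13) and Prox1 (-0.09 ± 0.12) did not pass the test.

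Genes beside the members were read in chromosome order. In the serpin cluster on chromosome 12, Serpina10, Serpina6, Serpina1d and Serpina1c had changes of -1.80 or lower, while Serpina11, Serpina9, Serpina12 and Serpina5 beside them lay between -0.09 and 0.29, with none called and wild type means of 4.31 to 5.48, below the olfactory receptor level. Ppp4r4, at the edge of the cluster, and Serpina16, next to Serpina6, were lower (-0.77 ± 0.10 and -0.45 ± 0.12, limma adjusted p of 0.000419 and 0.03). Serpina1f, which lies between Serpina16 and Serpina1d, differed by 0.30 ± 0.13 at a wild type mean of 4.80 and was not called. Serpina1a, Serpina1b and Serpina1e in the same stretch were not among the genes measured. In the albumin family on chromosome 5, Alb (-0.50) and Afp (-0.12) were followed by Afm, afamin, a vitamin E carrier, which was at 5.62, 5.52 and 5.22 in activated pools, against 6.84, 7.18 and 6.95 in wild type pools (-1.54 ± 0.13, limma adjusted p = 3.43e-05). The pools of Afm were apart, while those of the adjoining Alb and Afp overlapped. Albfm1 and Rassf6 beyond it were lower (-0.63 ± 0.15 and -0.35 ± 0.10, limma adjusted p of 0.02 and 0.0451), at wild type means of 5.56 and 5.24. Beside Ambp on chromosome 4, Kif12, a kinesin gene, changed by -1.45 ± 0.16 (limma adjusted p = 0.000154), and the orosomucoid genes Orm1, Orm3 and Orm2 lay between -0.02 and 0.05 at wild type means of 3.21 to 5.15. Apoc1 (-1.26) and Apoe (-0.72) were neighbours on chromosome 7, and Apoc4 next to them lay at 0.01. Ahsg, Fetub, Hrg, Kng2 and Kng1 on chromosome 16 lay between -0.11 and 0.19, none called, at wild type means of 3.78 to 5.0. Gene order was taken from RefSeq (GRCm38.p6), and Afm and Kif12 were picked out after their values were seen.

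**Figure D4:**
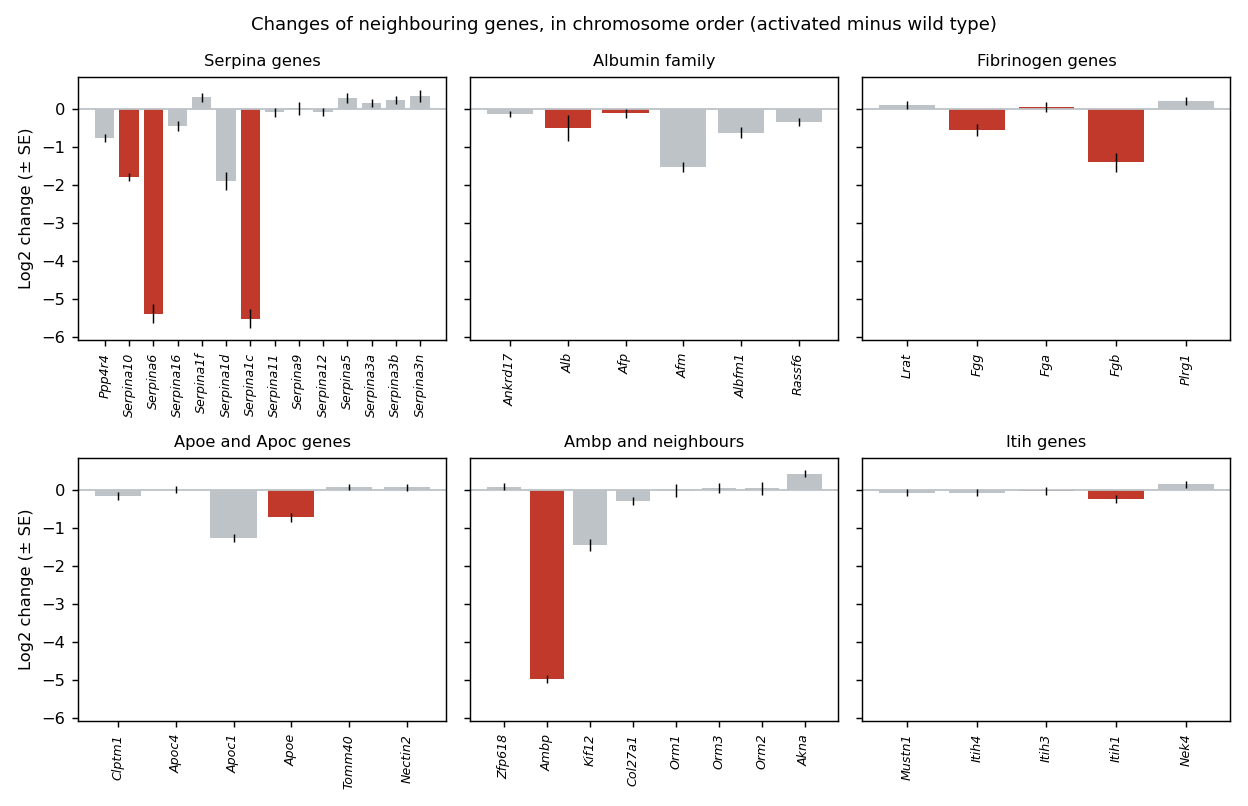
Log2 change, activated minus wild type (vertical axis, bars ± SE), of measured genes in chromosome order around plasma protein genes. Red bars are members and grey bars other genes. The serpin panel has deep decreases at Serpina6 (-5.39) and Serpina1c (-5.52), with Serpina1f between them at 0.30. From Serpina11 on its values lie between -0.09 and 0.33. The albumin panel shows the largest decrease at Afm (-1.54).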

How the data were processed

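RNA from 6 pools of E13.5 pancreata was measured on Affymetrix Mouse Gene 1.0 ST arrays, and the authors deposited log2 values per transcript cluster. Background correction, summarization, normalization, detection calls and hybridisation batches were not given in the sources used here, so their effect on the values cannot be stated, and the number of arrays is a limit on precision as well. Of 35556 rows, 21789 carried 1 gene symbol, 1621 several and 12146 none in the platform annotation. Rows with 1 symbol were used. A gene on more than 1 such row (999 genes) was represented by its brightest row on average, which left 19938 genes. Genotypes came from the sample labels.

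Activated minus wild type was fitted with the lmFit and eBayes functions of limma 3.58.1 (R 4.3.3), the method the study names, with no covariate and no filter, Benjamini-Hochberg adjustment over all genes and a threshold of 0.05. This step was tested on simulated data. Folds are 2 to the power of the log2 difference, and SE is that of the limma fit. Each p-value sets the genotype difference against the spread between pools within a genotype, with variances moderated across all genes. An exact permutation test of 3 against 3 cannot go below p = 0.1. Array values of different rows are not on 1 scale of abundance. Olfactory receptor genes served as a guide to background. The members and all lists were chosen with earlier results of these data known. Values in every pool are given for members with a change of 1 or more in size without overlap, and for the highest and the least changed member of each role; from each other list up to 6 called genes with the largest change are named. Alb, Afp, Trf, Afm, Kif12, Alas2, Hbb-y, Epb42, Tmod1, Gata1, Slc2a2, Foxa1, Hnf4g, Foxa2, Foxa3 and Prox1 were picked out once their values were known. So were the named genes of the epithelial and endocrine lists, the hepatocyte genes named as near or above background and the chromosome neighbours. Promoters were taken from RefSeq (GRCm38.p6) and searched on both strands with Python 3.11.15, pandas 2.3.3 and matplotlib 3.10.9. Other centring, row choice, level filters, priors, weights, thresholds and left-out pools were tried.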

Additional observations from a re-analysis of the deposited data

How the results depend on the processing

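Across 17 other settings, 15 of the 16 called members kept their call in every setting that included them, and Fgg lost it in 10; 8 members gained a call in at least 1 setting, all of them under array weights. No pairing of the pools was given in the sources used here. Same-numbered pools correlated at 0.014, -0.154 and -0.046 in their deviations from the genotype means. These values gave no sign of pairing and cannot show that there was none. With the replicate number as a block, 15 members were lower and 0 higher, and Fgg was the member that lost its call (adjusted p = 0.0845). Over all genes the block gave 1274 lower and 1011 higher, over the receptor genes 3 lower and 5 higher, and over the transcription factors 7 lower and 2 higher.

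Leaving out each pool in turn gave 15 to 18 members lower, 1132 to 1413 genes lower and 843 to 1328 genes higher over all genes, 1 to 2 other plasma protein genes higher, 2 to 4 receptor genes lower, and a member median between -0.48 and -0.327. The low of 843 came without beta-catenin activated pool 1, against 1313 with all pools, and so did the 2 receptor genes, and the 2 other plasma protein genes higher came without wild type pool 2. Only genes above the median level left 12 members with 10 lower and a median of -1.699, and 7 other plasma protein genes with 3 lower and 0 higher. They also left 1 hepatocyte enzyme gene with 0 lower, 13 transcription factors with 0 higher and 16 receptor genes with 3 higher. Only genes above the lower quartile left 25 members with a median of -0.707. Level was the mean of all 6 arrays, so a gene could pass through its wild type value alone, as Serpina1c did (4.56 activated, 10.08 wild type). Such a filter favours genes that are lower in activated pools, so nothing is read from these medians and counts. Array weights gave 2422 genes lower and 3025 higher, 1 member higher (Hp), 2 other plasma protein genes higher, 7 hepatocyte enzyme genes and 10 receptor genes lower, and a member median of -0.375, and the cause was not tested. With all rows in the fit 751 genes were higher and 2 receptor genes lower, and at an adjusted p under 0.01 these were 723 and 2. Fbp1 lost its call with all rows in the fit (adjusted p = 0.0652) and at the stricter threshold. Centring arrays on housekeeping genes or on their medians moved the median of all genes by 0.03 and 0.04, and gave 1514 and 1667 genes higher. No called value changed sign in any of these settings, and Alb, not called in any, had a change of 0.018 without wild type pool 3. Values near the olfactory receptor level leave little room for a decrease, and 14 members lay at or below it in wild type pools, of which Fgg was called.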

Other observations

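The receptors, activators and assembly genes that plasma proteins work with changed in both directions. Of 33 measured from a list of 40, 4 were lower and 7 higher, with a median change of 0.01. F3, tissue factor, the starter of clotting (log2 change -0.97 ± 0.11 SE, limma adjusted p = 0.000207) and Abca1, which loads cholesterol onto apolipoproteins (-0.92 ± 0.11, limma adjusted p = 0.000271), were lower. Agtr2, a receptor of angiotensin, was at 5.95, 5.49 and 6.30 in activated pools, against 6.30, 7.0 and 6.64 in wild type pools (-0.74 ± 0.22, limma adjusted p = 0.0497), and lost its call in 8 of the 16 other settings that included it. Agtr1a, a type 1 angiotensin receptor gene, was at 7.44, 7.30 and 7.77 in activated pools, against 6.59, 6.76 and 6.71 in wild type pools (0.81 ± 0.13, limma adjusted p = 0.00167), whereas the precursor gene Agt was lower. Stra6, the receptor that takes retinol from Rbp4, was at 10.27, 9.73 and 10.36 in activated pools, against 9.25, 9.42 and 9.12 in wild type pools (0.86 ± 0.16, limma adjusted p = 0.00517), opposite in direction to Rbp4. Plaur, the urokinase receptor, was higher as well (0.72 ± 0.11, limma adjusted p = 0.00155).

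Of 15 red cell markers 1 was lower and 1 higher, and their mean level was 6.99 to 7.24 in activated pools, against 7.0 to 7.30 in wild type pools. Of 21 macrophage genes 1 was lower and 0 were higher by limma (3 lower and 2 higher at an unadjusted p under 0.05), of 23 mesenchyme genes 2 were lower and 7 higher, and of 20 endothelial genes 0 were lower and 5 higher (2 lower and 10 higher at an unadjusted p under 0.05).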
